A study of Mus musculus with 8 samples.

Results

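MicroRNA levels in mouse embryonic fibroblasts transfected with both Csk and c-Src were compared with those in the same fibroblasts carrying an empty vector. The members were the 2 arrays labelled as expressing Csk and c-Src and the 2 arrays labelled mock, 4 of the 8 arrays of the series, chosen by their labels. All cells, controls included, were Csk-/- mouse embryonic fibroblasts of strain C57BL/6J. By the labels, the mock cells (Csk-/-, empty vector) lack Csk and the Csk+c-Src cells (Csk-/-) were transfected with Csk and c-Src. The labels name no loss of the cells' own c-Src, so c-Src was added to whatever the cells had. The other 2 groups were Csk-/- fibroblasts transfected with c-Src alone and with Csk alone, with 2 arrays each; their levels are set side by side at the end, and their arrays also enter the scaling, the choice of microRNAs tested and the estimate of spread. The form of c-Src, the promoter of the vectors and whether the cells were clones or pools are not given in the sources used here. Arrays of a group are called biological replicates in the labels and duplicates in the series description, with no word on separate cultures. P-values therefore measure the spread between these arrays, which may be technical.

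Csk is a kinase that phosphorylates the tail of Src family kinases and so holds them in a closed, inactive form, and c-Src is the founding member of that family. Cells without Csk have lost this brake, and adding c-Src with Csk returns the brake together with more of its substrate. MicroRNAs are short RNAs cut from hairpin precursors that guide Argonaute proteins to messenger RNAs, mostly through pairing of the seed, the bases 2 to 8 of the mature strand. Both strands of a hairpin can give a microRNA, and the one taken to be rarer carried a star in the names used on these arrays.

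The sequences of microRNAs that moved most, and of close relatives, are shown first, since relatives that share a seed reach largely the same messenger RNAs. Among those shown, miR-10b and miR-146b moved against the relative that shares their seed. The sequences were read from RefSeq tables of build GRCm38.p6, written 5′ to 3′ with the seed in capitals. Of 31 microRNAs looked up there, 29 were matched, most of them through a hand-made map from the arrays' older names to current arm names; miR-140 and miR-466a-3p are named only. The first set holds the pairs from the Hox gene clusters and the miR-146 pair.
miR-10a: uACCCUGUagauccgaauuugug
miR-10b: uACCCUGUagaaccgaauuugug
miR-196a: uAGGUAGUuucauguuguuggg
miR-196b: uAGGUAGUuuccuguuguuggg
miR-146a: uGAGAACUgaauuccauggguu
miR-146b: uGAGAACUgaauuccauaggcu
Counted from the 5′ end and read from the first member of each pair to the second, miR-10a and miR-10b differ by U12A, miR-196a and miR-196b by A12C, and miR-146a and miR-146b by G18A and U21C, so each pair has 1 seed. Mature miR-10a lies at chr11:96317186-96317208 on the plus strand, inside the annotated span of Hoxb3, and miR-10b lies at chr2:74726074-74726096 on the plus strand, inside the spans of Hoxd3 and Hoxd4. Mature miR-196a has copies at chr11:96265187-96265208 on the plus strand and chr15:102973365-102973386 on the plus strand, and miR-196b lies at chr6:52230129-52230150 on the minus strand. Mature miR-146a lies at chr11:43374435-43374456 on the minus strand, and miR-146b at chr19:46342790-46342811 on the plus strand.

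The second set holds the other microRNAs on which the falls turn, each with a seed of its own except miR-16 and miR-497, which share one.
miR-338-3p: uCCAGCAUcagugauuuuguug
miR-148a: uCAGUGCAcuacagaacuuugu
miR-193b: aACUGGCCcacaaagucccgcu
miR-26a: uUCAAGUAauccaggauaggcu
miR-497: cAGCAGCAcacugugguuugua
miR-16: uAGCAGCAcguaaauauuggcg
miR-450a-5p: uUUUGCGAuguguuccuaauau
Mature miR-338-3p lies at chr11:120014781-120014802 on the minus strand, inside the span of Aatk. Mature miR-148a lies at chr6:51269829-51269850 on the minus strand and miR-193b at chr16:13449570-13449591 on the plus strand. The copies of miR-26a lie at chr9:119031811-119031832 on the plus strand and chr10:126995543-126995564 on the plus strand, inside the spans of Ctdspl and Ctdsp2.

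The third set holds microRNAs that were higher with Csk and c-Src.
miR-218: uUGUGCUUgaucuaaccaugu
miR-140*: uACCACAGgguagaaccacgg
miR-7a: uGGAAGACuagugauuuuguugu
miR-17: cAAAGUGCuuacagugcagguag
miR-20a: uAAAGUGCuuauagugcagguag
miR-20b: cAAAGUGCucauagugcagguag
miR-19a: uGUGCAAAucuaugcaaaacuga
miR-19b: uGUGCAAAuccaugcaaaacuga
The copies of miR-218 lie at chr5:48223966-48223986 on the plus strand and chr11:35616840-35616860 on the plus strand, inside the spans of the axon guidance genes Slit2 and Slit3. Mature miR-140* lies at chr8:107551288-107551308 on the plus strand, inside the span of Wwp2. MiR-17, miR-20a and miR-20b share a seed, as do miR-19a and miR-19b, which differ only by U11C.

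Each array held probes for 611 mouse microRNAs and 215 of these were detected on all 4 arrays compared. Levels below are log2 of the signal divided by the array's own 75th percentile, taken over 187 microRNAs that every array of the series detected; that percentile was 630.6 and 630.2 signal units on the mock arrays and 715.5 and 735.6 on the Csk+c-Src arrays. The lowest level given is a floor of -5.69. Equal amounts of RNA were labelled, so levels are relative within an array, and in bulk samples fewer cells of a type and less RNA per cell cannot be told apart. Each group lay in its own column of 1 slide, so column and group cannot be told apart. Csk and Src transcripts are not measured on these arrays, so the transfected genes could not be checked against the labels.

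With Csk and c-Src, 53 of 243 tested microRNAs fell and 30 rose against mock, at a Benjamini-Hochberg adjusted p under 0.05 in limma. These are 21.8% and 12.3% of those tested, 34.2% in all, and the backgrounds against which the counts for families below are read. Most changes were small: the median size among the 83 was 0.40 on the log2 scale, 5 fell by 2-fold or more (miR-146a by a bound) and 0 rose by that much. At 0.5 log2 or more, 18 fell and 4 rose. Levels did not overlap between the groups for all 83, and for 174 of the 243 tested. With 2 arrays a group, the smallest p of an exact permutation test is 0.333, so the calls rest on limma's spread, moderated across microRNAs and estimated over all 8 arrays. A fit over the 4 mock and Csk+c-Src arrays alone, on the same scale, called 28 higher and 51 lower.

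The balance of falls and rises depended on the scale. The median log2 difference over all tested microRNAs was -0.08, and it was 0.04 when the percentile was taken over microRNAs detected on all 4 arrays, 0.05 over all mouse microRNAs and 0.08 in the authors' unscaled table. The calls were then 52 higher and 32 lower, 56 and 30, and 50 and 18, while scaling on the median gave 46 and 54 and quantile normalization 49 and 44. Of the 83, 81 had the same sign under all 5 of these scalings; 41 were also called under all 5, 28 of them rises and 13 falls. Without Csk array 2, which had 651 outlier spots against 246 to 323 on the others, 58 were higher and 32 lower. Each mean rests on 2 arrays: the total fell from 83 to 53 without Csk+c-Src array 1, 31 without Csk+c-Src array 2 and 32 without mock array 2. Of the 83, 22 kept the call whichever array was left out, and 14 kept it under both kinds of change: miR-10a, miR-146a, miR-196a, miR-338-3p, miR-148a, miR-193b, miR-26a, miR-497 and miR-450a-5p among those that fell, and miR-218, miR-140*, miR-350, miR-466a-3p and miR-22* among those that rose. Other kinds of change are not part of that list: with spots flagged as outliers kept, the call on miR-338-3p was lost. With normexp background correction in place of the deposited processed signal, only miR-148a was called, as detailed in the closing section.

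**Figure D1:**
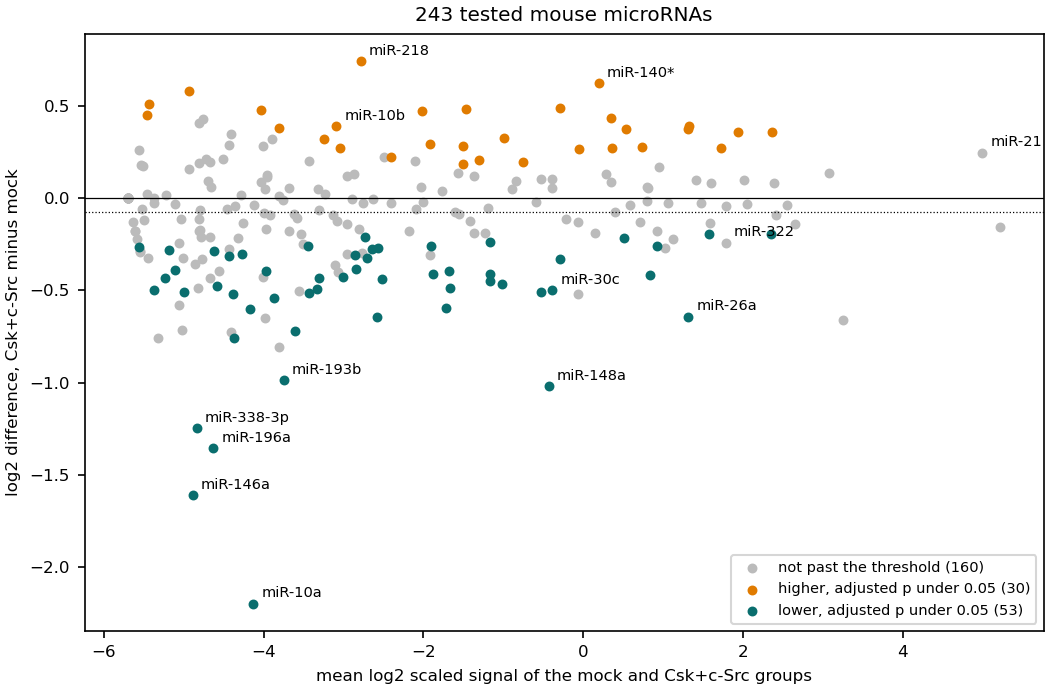
Log2 difference of Csk+c-Src minus mock (vertical axis) against the mean log2 scaled signal of both groups (horizontal axis) for the 243 tested microRNAs, with 1 point each; the dotted line is the median difference of -0.08. The largest falls, from miR-10a at -2.20 to miR-193b at -0.98, lie below the band of -0.81 to 0.74 that holds the others.

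The largest fall was that of miR-10a, a microRNA of the Hoxb cluster. Its level was -3.14 and -2.93 on the mock arrays and -5.17 and -5.29 on the Csk+c-Src arrays. Both arrays with Csk and c-Src were thus far below both mock arrays and stayed above the floor. The difference was -2.20 ± 0.09 (SE, n = 2 arrays a group; limma adjusted p = 0.000236), or 4.59-fold lower, with a 95% interval of -2.43 to -1.97. Its 2 probes gave -2.39 and -2.12. MiR-10b, which differs from it by 1 base outside the seed and lies in the Hoxd cluster, was at -3.33 and -3.24 in mock and -2.95 and -2.84 with Csk and c-Src. Here the arrays with both genes were the higher ones, by 0.39 ± 0.06 (SE, adjusted p = 0.00699), a call lost without Csk+c-Src array 2. Cross-hybridisation between the members of such pairs was not tested.

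The other Hox-cluster family, miR-196, which is known to repress Hox genes such as Hoxb8, fell in both its members. MiR-196a was at -3.93 and -3.97 in mock and -5.43 and -5.18 with Csk and c-Src. The fall to near the floor amounted to -1.36 ± 0.11 (SE, adjusted p = 0.00085), 2.56-fold, and its 3 probes with signal ranged from -2.40 to -1.04. MiR-196b was at -3.34 and -3.14 in mock and -4.07 and -3.85 with both genes. That fall was -0.72 ± 0.12 (SE, adjusted p = 0.00813) and was not called without mock array 2. Of the 4 tested members of the Hox clusters, 3 fell (75%, beside 21.8% over all tested) and 1 rose (25%, beside 12.3%). Their median was -1.04 beside -0.08 over all tested.

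MiR-146a, an NF-kB-induced microRNA that represses the signalling adaptors Traf6 and Irak1, was detected on both mock arrays and on neither Csk+c-Src array. Its level was -4.17 and -4.00 in mock and at the floor of -5.69 on both Csk+c-Src arrays, so only a bound can be given. It was at least 3.05-fold lower (log2 -1.61, limma adjusted p = 0.000236). Both Csk+c-Src levels were set to the floor, so every p for miR-146a takes no spread from those arrays. MiR-146b, with the same seed, moved the other way. Its level was -3.20 and -3.15 in mock and -2.91 and -2.89 with both genes, a rise of 0.27 ± 0.04 (SE, adjusted p = 0.00738) that was not called without mock array 2 or without Csk+c-Src array 2. Only miR-146a and miR-92b were detected on both mock arrays and on neither Csk+c-Src array, and miR-92b gave -0.76 ± 0.34 (SE, adjusted p = 0.141), which did not pass.

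Other large falls were found at low and at middle levels. MiR-338-3p, from a hairpin within Aatk and known for promoting oligodendrocyte maturation, was at -4.29 and -4.13 in mock and -5.55 and -5.38 with Csk and c-Src. It fell to just above the floor, by -1.25 ± 0.08 (SE, adjusted p = 0.000647), a call lost when spots flagged as outliers were kept. MiR-148a, known to repress the DNA methyltransferase Dnmt1, was at 0.04 and 0.12 and -0.93 and -0.95. This fall was -1.02 ± 0.06 (2.02-fold, adjusted p = 0.000452), well above the floor, and both probes gave -1.02. MiR-193b was at -3.30 and -3.21 in mock and -4.22 and -4.26 with both genes. The arrays were separate, and the fall was -0.98 ± 0.05 (SE, adjusted p = 0.000399). MiR-365, which has a hairpin next to that of miR-193b, was at -0.87 and -0.82 and -0.66 and -0.63 and differed by 0.20 ± 0.05 (SE, adjusted p = 0.0295). The hairpin that its signal came from was not tested. That rise was not called in 4 of the 8 fits with 1 array left out, those without a mock or a Csk+c-Src array, and under 1 of the 5 other scalings.

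MiR-26a, which is encoded within genes of the Ctdsp phosphatase family and represses the Polycomb methyltransferase Ezh2, was at 1.60 and 1.68 in mock and 1.02 and 0.97 with Csk and c-Src. Its arrays lay close within each group, and it fell by 0.64 ± 0.05 (SE, adjusted p = 0.000763). MiR-497, which shares the seed of miR-16, was at -2.32 and -2.20 and -2.92 and -2.89, a fall of -0.65 ± 0.07 (SE, adjusted p = 0.00205). MiR-680 was at -3.87 and -4.11 and -4.73 and -4.76 and differed by -0.76 ± 0.09 (SE, adjusted p = 0.00365); it was detected on 1 of the 2 Csk+c-Src arrays, and the call was lost without Csk+c-Src array 2.

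**Figure D2:**
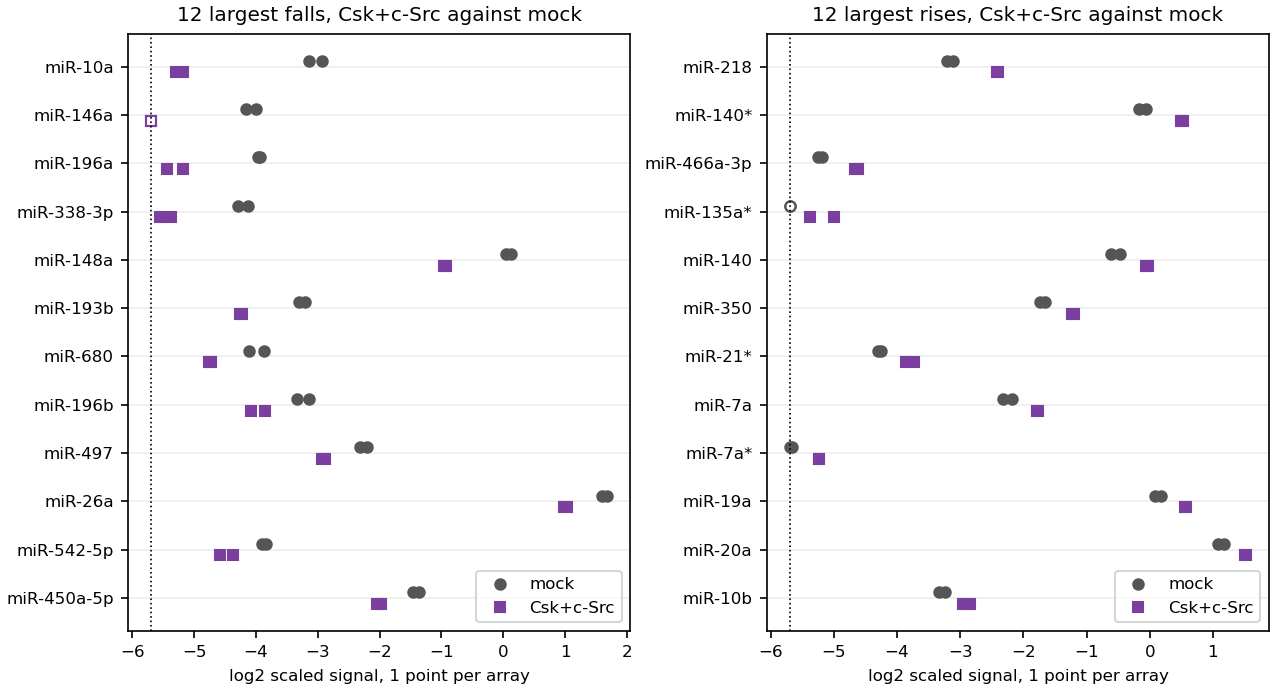
Log2 scaled signal on each mock array (circles) and each Csk+c-Src array (squares) for the 12 largest falls (left) and rises (right) past the threshold; open symbols mark groups in which no array detected the microRNA, and the dotted line is the floor of -5.69. Rows were chosen among calls whose arrays do not overlap, so the separation of the groups in every row was a condition of the choice. Gaps on the right, 0.39 to 0.74, are narrower than most on the left, 0.59 to 2.20.

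The largest rise was that of miR-218, which lies within Slit2 and Slit3 and is known from motor neurons. Its level was -3.20 and -3.11 in mock and -2.42 and -2.40 with Csk and c-Src. The arrays were well apart, with a rise of 0.74 ± 0.04 (SE, adjusted p = 0.000452), or 1.67-fold. MiR-140*, the other strand of a hairpin within Wwp2 that is best known from cartilage, was at -0.17 and -0.06 and 0.52 and 0.49. It rose by 0.62 ± 0.06 (SE, adjusted p = 0.00152), and its partner strand miR-140 by 0.49 ± 0.11 (SE, adjusted p = 0.021). Despite its star, miR-140* gave the higher signal, as miR-140 was at -0.61 and -0.46 in mock and -0.06 and -0.03 with both genes. The call on miR-140 was lost when any mock or Csk+c-Src array was left out. Among hairpins named on the array as a strand and its star strand, 32 had both strands tested. Of these, 2 had both strands called in 1 direction (miR-140 and miR-7a) and 0 in opposite directions. In 13 only 1 strand was called and in 17 neither. Hairpins whose strands carry arm names in place of a star were not counted. Some of those had both strands called lower, as given below.

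MiR-7a, known for repressing receptors of the EGF family, was at -2.32 and -2.18 in mock and -1.79 and -1.77 with Csk and c-Src. The rise was 0.47 ± 0.06 (SE, adjusted p = 0.00343) and was lost without Csk+c-Src array 2. The star strand miR-7a* lay at -5.67 and -5.69 in mock, detected on 1 of 2 arrays, and -5.23 on both arrays with both genes. It differed by 0.45 ± 0.11 (SE, adjusted p = 0.0341), a call lost when any mock or Csk+c-Src array was left out. MiR-350 was at -1.74 and -1.66 and -1.21 and -1.23. Its arrays did not overlap and it rose by 0.48 ± 0.04 (SE, adjusted p = 0.000949).

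Among dim microRNAs, miR-466a-3p from the Sfmbt2 intron rose by 0.58 ± 0.04 (SE, adjusted p = 0.000763). MiR-135a* was detected on both Csk+c-Src arrays and on neither mock array, at -5.38 and -4.99, which makes it at least 1.42-fold higher (adjusted p = 0.0368), but the call was lost in 7 of the 8 fits with 1 array left out. MiR-21* differed by 0.48 ± 0.08 (SE, adjusted p = 0.00886); its probes with signal gave -0.27 to 0.53 and so disagree in direction, and the call was lost without mock array 2 or Csk+c-Src array 1.

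MicroRNAs of the miR-17 to miR-92 cluster and its paralogues, which promote proliferation and repress the cell-cycle inhibitor Cdkn1a, rose in 7 of 16 tested members (43.8%, beside 12.3% over all tested) and fell in 0, with a median of 0.24 beside -0.08. Those that rose were miR-17, miR-18a, miR-19a, miR-19b, miR-20a, miR-20b and miR-92a. The 16 were picked by name and include miR-92b, whose difference of -0.76 was the group's lowest and did not pass. They also include miR-93*, which was not detected on these 4 arrays. Any 2 of miR-17, miR-20a and miR-20b differ by 2 bases, and miR-19a and miR-19b by 1. Signal may be shared between their probes, so these rises may not be separate observations. MiR-19a was at 0.09 and 0.17 in mock and 0.57 and 0.56 with both genes, and rose by 0.43 ± 0.07 (SE, adjusted p = 0.0074). MiR-20a was at 1.08 and 1.17 and 1.52 and 1.51, a rise of 0.39 ± 0.07 (SE, adjusted p = 0.0107). Members of the paralogous cluster within Mcm7 were close to mock, miR-106b at -0.03 (adjusted p = 0.802), miR-93 at -0.01 (adjusted p = 0.872) and miR-25 at 0.06 (adjusted p = 0.254). The number that rose was 8 to 10 under the other scalings and 9 without Csk array 2, but leaving out mock array 1 or 2 gave 4 or 0, and leaving out Csk+c-Src array 1 or 2 gave 3 or 1, so it rests on the 4 arrays together.

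The X-linked cluster that begins with miR-322 and miR-503 and runs on to the miR-542 and miR-450 hairpins, which is induced on cell-cycle exit and muscle differentiation and represses Cdc25a, fell in 6 of 9 tested members (66.7%, beside 21.8% over all tested) and rose in 0, with a median of -0.43. MiR-450a-5p was at -1.46 and -1.36 in mock and -1.97 and -2.04 with Csk and c-Src. The arrays were apart by -0.59 ± 0.05 (SE, adjusted p = 0.000918). MiR-542-5p gave -0.60 ± 0.10 (SE, adjusted p = 0.00767), lost without mock array 2 and under 1 of the 5 other scalings, and miR-542-3p -0.43 ± 0.08 (SE, adjusted p = 0.0137). MiR-503 was at -0.68 and -0.88 and -1.14 and -1.35, and fell by 0.47 ± 0.10 (SE, adjusted p = 0.0209), a call lost in 5 of the 8 fits with 1 array left out and under 4 of the 5 other scalings. MiR-322 was at 1.84 and 1.98 and 1.64 and 1.69 and did not pass, at -0.24 ± 0.09 (SE, adjusted p = 0.0932) with a 95% interval of -0.47 to -0.01. MiR-351 and miR-450b-3p also fell, at -0.43 (adjusted p = 0.0213) and -0.54 (adjusted p = 0.0117). The number that fell was 2 to 4 under the other scalings, 3 without Csk array 2, without either Csk+c-Src array, and 1 without mock array 2; the median stayed below 0 in each.

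The miR-15 and miR-16 family shares its seed with miR-322 and represses cyclins and Bcl2. Of its 6 tested members 3 fell (50%, beside 21.8% over all tested) and 0 rose, with a median of -0.21. Those that fell were miR-497 as above, miR-195 at -0.44 (adjusted p = 0.00722) and miR-16 at -0.20 (adjusted p = 0.0361). MiR-16 was at 2.42 and 2.47 and 2.27 and 2.23, a narrow gap that was not called in 6 of the 8 fits with 1 array left out and under 4 of the 5 other scalings, where its difference was -0.15 to -0.01. The number that fell was 1 to 4 under the other scalings and 1 without mock array 2 and without Csk+c-Src array 2.

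The miR-30 family, abundant in differentiated cells and known to repress the transcription factor Snai1, fell in 4 of 8 tested members (50%, beside 21.8% over all tested). It rose in 0, with a median of -0.27. MiR-30c was at -0.16 and -0.11 in mock and -0.60 and -0.67 with both genes, and miR-30e at -0.30 and -0.26 and -0.75 and -0.83. For both the arrays were apart, with falls of -0.50 ± 0.04 (SE, adjusted p = 0.000763) for miR-30c and -0.51 ± 0.04 (SE, adjusted p = 0.00085) for miR-30e. MiR-30a fell by 0.42 ± 0.04 (SE, adjusted p = 0.00108), and miR-30d was at -0.33 (adjusted p = 0.01). Between 3 and 4 members fell when any array was left out, 3 to 4 under the other scalings of the processed signal and 0 in the authors' unscaled table.

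Of the miR-199 and miR-214 group, which marks mesenchymal cells, 4 of 5 tested members fell (80%, beside 21.8% over all tested), with a median of -0.29. MiR-199a-5p was at -0.94 and -0.93 and -1.36 and -1.40, a fall of -0.45 ± 0.04 (SE, adjusted p = 0.00085). MiR-214 gave -0.41 ± 0.07 (SE, adjusted p = 0.0117), miR-199a-3p -0.26 ± 0.07 (SE, adjusted p = 0.0399) and miR-199b* -0.22 ± 0.05 (SE, adjusted p = 0.0308). Only 1 of the group fell without mock array 2 and without either Csk+c-Src array, and 2 without Csk array 2 or mock array 1. Under the other scalings the number was 4 on the median and after quantile normalization, 1 with the percentile over microRNAs detected on all 4 arrays or over all mouse microRNAs, and 0 in the authors' unscaled table. The miR-181 family had 66.7% of its tested members lower, beside 21.8% over all tested, and its highest difference was 0. Of 3 tested miR-181 members, 2 fell: miR-181a by 0.51 ± 0.07 (SE, adjusted p = 0.00432) and miR-181b by 0.39 ± 0.06 (SE, adjusted p = 0.00673), with 1 called without mock array 2 or Csk array 2, 0 without Csk+c-Src array 2 and 1 to 2 under the other scalings. MiR-143 was at -0.32 (adjusted p = 0.00771), not called without mock array 2 or Csk+c-Src array 2, nor under 3 of the 5 other scalings, which gave -0.15 to -0.13.

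The intronic cluster of Sfmbt2, a large rodent set that includes miR-466, miR-467 and miR-669, had 7 of 15 tested members lower (46.7%, beside 21.8% over all tested). In it 1 was higher (6.67%, beside 12.3%), and the median was -0.22. MiR-467b, a dim member, was at -3.80 and -3.76 and -4.18 and -4.16, a fall of -0.39 ± 0.03 (SE, adjusted p = 0.000763). MiR-669c, near the floor at -5.12 and -5.13 and -5.60 and -5.65, gave -0.50 ± 0.04 (SE, adjusted p = 0.000763). Many members differ by few bases, so signal may be shared between their probes. Under the other scalings 0 to 7 fell, and the count was 3 without Csk array 2 and 4 without Csk+c-Src array 2.

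In several families few members or none passed. Of 14 tested let-7 and miR-98 members only let-7d did, at 0.28 (adjusted p = 0.0306) and in 3 of the 8 fits with 1 array left out, with a median of 0.04 that turned below 0 when mock array 1 or Csk+c-Src array 2 was left out. Of the 7 tested members of the miR-99 and miR-100 family with miR-125, 2 rose, miR-99a and miR-100, with a median of 0.14; 3 to 5 rose under the other scalings, 4 without Csk array 2, 1 without either Csk+c-Src array and 0 without mock array 2. MiR-99a and miR-100 make up 28.6% of their tested list and let-7d 7.14% of its own, beside 12.3% higher over all tested. Under the other scalings 1 to 3 of the let-7 and miR-98 members rose. The tested members of miR-29 (5) and miR-34 (3) had medians of 0.08 and 0.12 with 0 called on this scale, where 34.2% of all tested were. Under the other scalings 2 to 3 of the miR-29 members and 1 of the miR-34 members rose, as did 3 and 1 without Csk array 2. Among microRNAs of the miR-23 clusters, which also hold miR-24 and miR-27, miR-23a rose by 0.36 ± 0.06 (SE, adjusted p = 0.00771) and miR-27a by 0.27 ± 0.07 (SE, adjusted p = 0.0424), while miR-23b from the other copy of the cluster was at -0.20 (adjusted p = 0.0341). None of these 3 was called without mock array 2 or without Csk+c-Src array 2, nor was miR-23b under 3 of the 5 other scalings, and the group's median of -0.09 changed sign under several scalings.

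**Figure D3:**
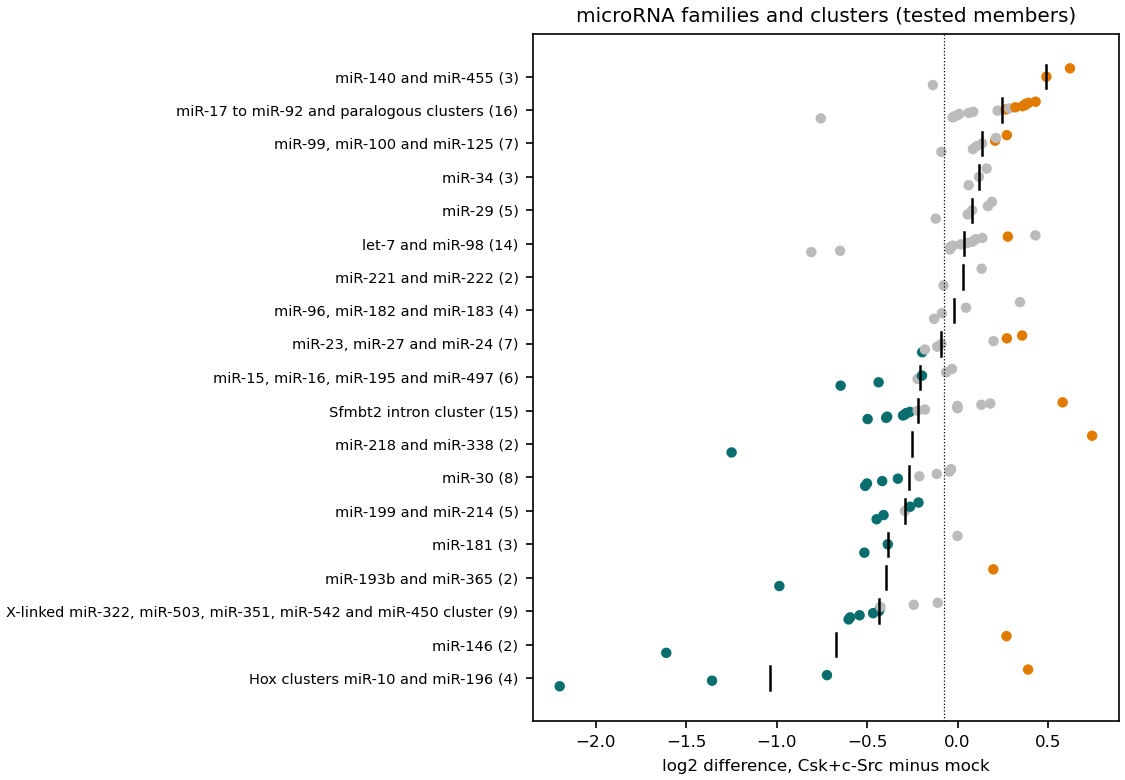
Log2 difference of Csk+c-Src minus mock (horizontal axis) for each tested member of 19 families and clusters (rows, number tested in parentheses); orange points rose, teal points fell, grey points did not pass the threshold, short bars are medians and the dotted line is the median over all tested, -0.08. The miR-17 to miR-92 group lies mostly to the right of the line, while the X-linked, miR-30 and miR-199 groups lie mostly to the left.

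MiR-99a, which represses mTOR, miR-27b and miR-542-3p are microRNAs that the study's authors took up for their response to Src in these cells, so they are not independent evidence of a direction. MiR-99a was at 0.19 and 0.25 in mock and 0.52 and 0.47 with both genes, and rose by 0.27 ± 0.04 (SE, adjusted p = 0.00613), lost without mock array 2. MiR-27b was at 0.96 and 1.08 and 0.85 and 0.83, a difference of -0.18 ± 0.06 (SE, adjusted p = 0.0574) that did not pass and had a 95% interval of -0.32 to -0.04. It was called lower under 1 of the 5 other scalings and without mock array 1, and the 5 scalings gave -0.13 to 0.01, so that its sign turned in the authors' unscaled table. MiR-542-3p was at -3.14 and -3.02 and -3.54 and -3.49, a fall of -0.43 ± 0.08 (SE, adjusted p = 0.0137) that was not called without mock array 2 or either Csk+c-Src array, nor under 3 of the 5 other scalings.

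Of 5 microRNAs often tied to transformed cells, 1 passed the test between cells with both genes and mock on this scale. Over all tested, 34.2% passed it. Another 2 of the 5 passed under several other scalings. MiR-21, which represses Pdcd4, was at 4.79 and 4.95 and 5.09 and 5.15, and the difference of 0.25 ± 0.11 (SE, adjusted p = 0.147) did not pass. It was called higher under 3 of the 5 other scalings, whose values were 0.16 to 0.44, and without Csk array 2 at 0.40. MiR-221, a repressor of the cell-cycle inhibitor Cdkn1b, gave 0.13 ± 0.05 (SE, adjusted p = 0.103) with a 95% interval of 0.00 to 0.27. It was called higher under 4 of the 5 other scalings, the exception being quantile normalization, with 0.00 to 0.32 over the 5, and without Csk array 2 at 0.28. Its cluster partner miR-222 gave -0.08 ± 0.09 (SE, adjusted p = 0.558), interval -0.31 to 0.15. MiR-31 gave -0.14 ± 0.05 (SE, adjusted p = 0.103); its sign and that of miR-222 turned under other scalings. MiR-210, induced by hypoxia, was at -1.20 and -1.11 and -0.81 and -0.84. It passed, at 0.33 ± 0.07 (SE, adjusted p = 0.0226), but the call was lost when any mock or Csk+c-Src array was left out.

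Levels in the cells that received a single gene were set beside these. Among all 243 tested, Csk+c-Src passed the threshold against c-Src in 109 (44.9%: 15.6% higher and 29.2% lower) and against Csk in 148 (60.9%: 19.3% higher and 41.6% lower), so a call in either is common. These comparisons share the Csk+c-Src arrays with the comparison against mock and so are no independent support for it. Of the 34 microRNAs made up by the 24 largest changes and those named whatever their result, 28 were called against c-Src and 30 against Csk.

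For several of the largest falls the cells with both genes stood below all 3 other groups. MiR-10a was at -2.97 and -2.91 with c-Src alone and -2.35 and -2.24 with Csk alone, so that the difference with both genes was -2.29 ± 0.09 (SE, adjusted p = 4.53e-05) from the c-Src cells and -2.93 ± 0.09 (SE, adjusted p = 1.23e-05) from the Csk cells. MiR-146a was at -2.40 and -2.31 with c-Src and -3.11 and -3.04 with Csk, both above mock, and at least 10.1-fold and 6.16-fold lower with both genes (adjusted p = 5.84e-06 and 6.64e-06). Against mock, c-Src alone gave 1.73 (adjusted p = 5.75e-05) and Csk alone 1.01 (adjusted p = 0.000202), so miR-146a was higher than mock with either gene alone and lower with both.

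MiR-196a was at -3.79 and -3.83 with c-Src and -3.56 and -3.35 with Csk, above the Csk+c-Src arrays by more than the spread (differences -1.49 ± 0.11 (SE, adjusted p = 0.000282) and, from Csk, -1.85 ± 0.11 (SE, adjusted p = 8.44e-05)). MiR-193b, at -3.18 and -3.09 and -3.29 and -3.25, differed by -1.11 ± 0.05 (SE, adjusted p = 7.41e-05) from the first and -0.97 ± 0.05 (SE, adjusted p = 5.32e-05) from the second. MiR-26a, at 1.35 and 1.43 and 1.69 and 1.72, differed by -0.39 ± 0.05 (SE, adjusted p = 0.00152) from the first, not called under 2 of the 5 other scalings, and -0.71 ± 0.05 (SE, adjusted p = 0.00011) from the second. For these 3 both single-gene groups lay nearer to mock than the cells with both genes did. On the other side, miR-140* was at -0.20 and -0.09 with c-Src and -0.24 and -0.17 with Csk, close to mock, and higher with both genes by 0.65 ± 0.06 (SE, adjusted p = 0.000576) from the first and 0.71 ± 0.06 (SE, adjusted p = 0.000278) from the second.

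Other microRNAs lay near 1 of the single-gene groups. MiR-338-3p was at -5.69 and -5.68 with Csk alone, at or next to the floor as with both genes (difference 0.22 ± 0.08 (SE, adjusted p = 0.0583), called higher under 4 of the 5 other scalings), and at -3.86 and -3.81 with c-Src alone. MiR-218 was at -2.37 and -2.31 with Csk alone, near the level with both genes (difference -0.07 ± 0.04 (SE, adjusted p = 0.192)), and lower with c-Src alone at -3.65 and -3.64. The difference from Csk took the opposite sign under all 5 other scalings, at 0.04 to 0.27, and was called higher under 3 of them. MiR-148a was at -0.74 and -0.67 with Csk and -0.23 and -0.10 with c-Src, and the cells with both genes differed by -0.24 ± 0.06 (SE, adjusted p = 0.0175) from the former and by -0.77 ± 0.06 (SE, adjusted p = 0.000313) from the latter; the difference from Csk was called under none of the 5 other scalings and changed sign under 2. MiR-7a was at -1.65 and -1.60 with c-Src alone, near the level with both genes (-0.15 ± 0.06 (SE, adjusted p = 0.0872)), and at -2.21 and -2.13 with Csk alone. The difference from c-Src was called lower under 3 of the 5 other scalings and was above 0 under 2.

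MiR-10b separated from miR-10a here as well. With Csk alone it was at -4.94 on both arrays and with c-Src alone at -3.43 and -3.34, both below the cells with both genes, by 2.04 ± 0.06 (SE, adjusted p = 9.8e-06) for the former and 0.49 ± 0.06 (SE, adjusted p = 0.00167) for the latter. The Csk-only cells thus had the highest miR-10a and the lowest miR-10b of the 4 groups. MiR-146b was at -1.90 and -1.82 with c-Src and -2.34 and -2.28 with Csk, above the cells with both genes, which differed by -1.04 ± 0.04 (SE, adjusted p = 4.53e-05) from the first and -0.59 ± 0.04 (SE, adjusted p = 0.000143) from the second.

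**Figure D4:**
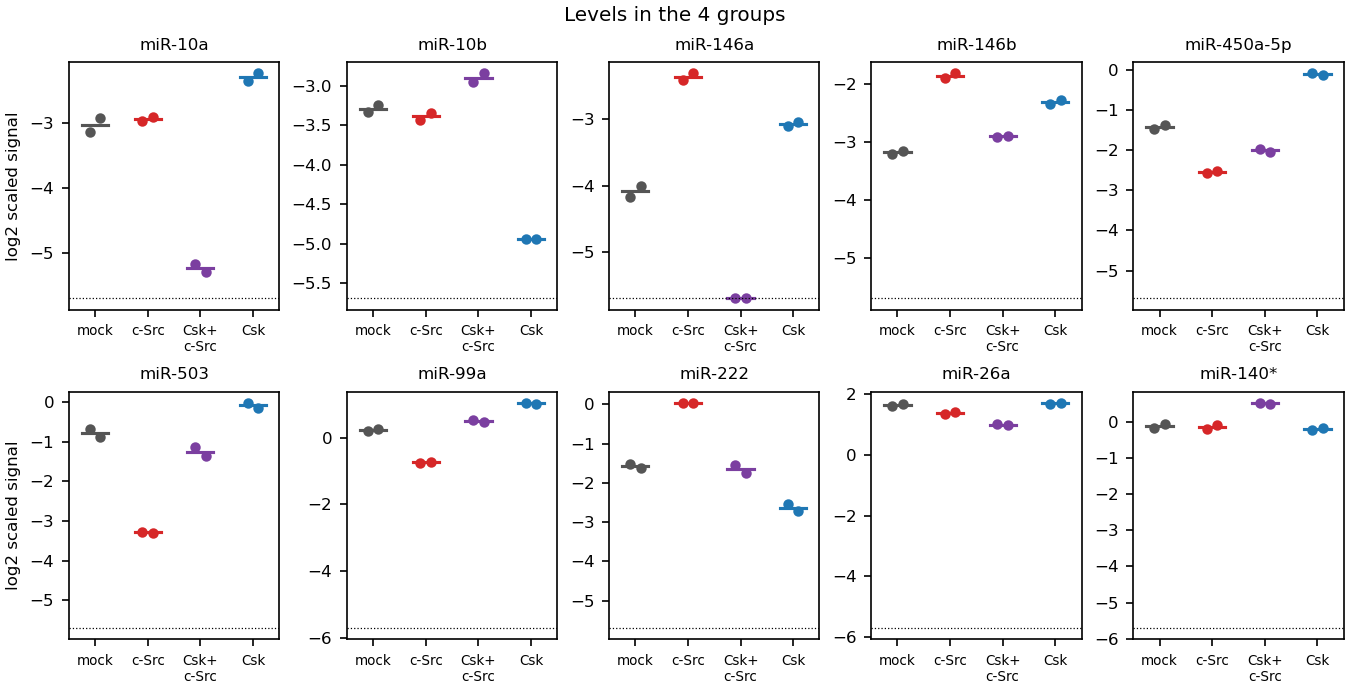
Log2 scaled signal of 10 microRNAs on each array (points) of the mock, c-Src, Csk+c-Src and Csk groups, with group means as bars; the dotted line is the floor of -5.69 and vertical scales differ between panels. MiR-10a and miR-146a are lowest with both genes, whereas miR-450a-5p, miR-503, miR-99a and miR-222 with both genes lie between the groups with 1 gene.

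For other microRNAs the cells with both genes lay between those with 1 gene, among them 3 of the X-linked cluster. MiR-503 was at -3.27 and -3.30 with c-Src alone and -0.01 and -0.14 with Csk alone, and the cells with both genes differed by 2.04 ± 0.10 (SE, adjusted p = 8.42e-05) from the first and -1.17 ± 0.10 (SE, adjusted p = 0.000322) from the second. MiR-322 was at 0.09 and 0.23 and 3.01 and 3.20, with differences of 1.50 ± 0.09 (SE, adjusted p = 0.000156) from the first and -1.44 ± 0.09 (SE, adjusted p = 0.000106) from the second. MiR-450a-5p was at -2.56 and -2.52 and -0.09 and -0.13, with differences of 0.53 ± 0.05 (SE, adjusted p = 0.000576) from the first and -1.90 ± 0.05 (SE, adjusted p = 6.64e-06) from the second. In each the order of levels was c-Src, Csk+c-Src, mock and Csk from low to high, and for miR-322 the neighbours Csk+c-Src and mock did not differ past the threshold.

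MiR-99a was at -0.76 and -0.72 with c-Src alone and 1.04 and 1.02 with Csk alone, and with both genes it differed by 1.23 ± 0.04 (SE, adjusted p = 3.56e-05) from the first and -0.54 ± 0.04 (SE, adjusted p = 0.000152) from the second. MiR-27b was at -0.20 and -0.11 and 2.07 and 2.13, with differences of 1.0 ± 0.06 (SE, adjusted p = 0.000109) from the first and -1.26 ± 0.06 (SE, adjusted p = 3.59e-05) from the second. MiR-222 ran the other way, at 0.04 on both arrays with c-Src and -2.55 and -2.71 with Csk, and the cells with both genes were -1.68 ± 0.09 from c-Src (adjusted p = 0.000107) and 0.99 ± 0.09 from Csk (adjusted p = 0.000417). For miR-221 the difference from c-Src was -1.36 ± 0.05 (SE, adjusted p = 4.53e-05), and that from Csk was 0.95 ± 0.05 (SE, adjusted p = 6.86e-05), on the same sides as for miR-222.

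Most markers of other cell types were dim or not detected. Of 12 epithelial microRNAs (the miR-200 family, miR-203 and miR-205) 0 were detected on these 4 arrays, nor was the hepatocyte miR-122. Of 8 blood cell microRNAs 1 was detected, miR-486, at a log2 difference of 0.02, and miR-223, miR-451 and miR-142 were not. Of 7 neural microRNAs 2 were detected, miR-128 and miR-219, while miR-124, miR-9 and miR-137 were not; 3 were tested, miR-9 through the c-Src arrays, and 0 passed. The endothelial miR-126-3p was detected on all 4 arrays near the bottom of the scale, at -4.06 and -4.19 in mock and -4.66 and -4.64 with both genes, and fell by 0.52 ± 0.06 (SE, adjusted p = 0.00295), a call lost without Csk+c-Src array 2 and under 1 of the 5 other scalings; miR-126-5p was not detected. The muscle miR-206 gave -0.43 ± 0.06 (SE, adjusted p = 0.00519), with miR-1 and miR-133b not detected, and its call was lost without mock array 2 or Csk+c-Src array 2 and under 2 of the 5 other scalings. Of the 5 muscle microRNAs on the array 2 were detected on these 4 arrays, miR-206 and miR-133a, and miR-133a was not tested. The summed scaled signal of the tested muscle microRNA was 0.0293 to 0.0325 in mock and 0.0224 to 0.0233 with both genes. That of the endothelial list was 0.0546 to 0.0599 and 0.0395 to 0.0402. The blood cell list summed to 0.0250 to 0.0284 and 0.0267 to 0.0272, and the neural list to 0.116 to 0.119 and 0.12 to 0.124. Of 21 microRNAs of the embryonic stem cell clusters 3 were detected and tested and 0 passed, miR-294, miR-295 and miR-302a were not detected, and the list summed to 0.178 to 0.219 in mock and 0.132 to 0.141 with both genes. The part of these cell types in the differences above was not tested. Of the fibroblast and mesenchyme markers, miR-199a-3p, miR-199a-5p, miR-199b*, miR-214, miR-143, miR-21 and miR-22 were detected on all 4 arrays and miR-145 was not.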

How the data were processed

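Cy3-labelled total RNA of high integrity was measured on 1-colour Agilent mouse microRNA arrays, per the labels' protocols. The deposited spot intensity comes from Agilent Feature Extraction 9.5.3.1, with which the authors subtracted a spatially fitted background without any scaling across arrays, per the file headers. The authors' series table holds gene-level intensity; 4888 of 4888 entries matched the deposited gene-level files, with values under 1 raised to 1, within a relative tolerance of 1e-04. The processed signal of Csk array 1 is rounded. Each array held 13000 non-control spots, 0 of them saturated among 13715.

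From these files, the processed signal of spots not flagged as outliers was averaged per probe, added up across a microRNA's probes, scaled by the 75th percentile, raised to the floor and taken to log2. Tests covered 243 microRNAs, those that both arrays of some group detected, and left out 368; 6 of the 243 lay at the floor throughout. A microRNA that passed only through another group entered the tests too. Group means over 8 arrays were fitted with limma 3.58.1 (R 4.3.3) and its empirical Bayes step (4 residual and 5.09 total degrees of freedom), two-sided, with Benjamini-Hochberg adjustment over all tested; all adjusted p in the text are from this fit. The number of arrays limits the precision. A fold against a group with 0 detecting arrays is a lower bound taken at the floor. Arrays set to the floor show no spread between them, so the p of such a comparison may be too small. The procedure was tested on simulated data.

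The text names the 12 largest rises and 12 largest falls among calls whose arrays did not overlap, 12 further microRNAs whatever their result, and up to 4 members of each of 28 lists; list picks are described where they passed. MiR-22*, miR-92b, miR-106b, miR-93, miR-25, miR-486 and the remaining called members of lists were added after their values were seen. The members and lists were chosen with earlier results of these data known. Current arm names were assigned to older names by hand, from general knowledge of the nomenclature. Alternatives were other scalings, background correction, spot summaries, floors, filters, a replicate block and leaving out each array. Plots used matplotlib 3.10.9 under Python 3.11.15.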

Additional observations from a re-analysis of the deposited data

How the results depend on the processing

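For the named microRNAs against mock, 968 results under other settings kept sign and side of the threshold, 191 kept the sign but lost the call, 19 gained a call and 22 turned sign. With normexp background correction, calls fell from 83 to 1 (0 higher, 1 lower), the median difference over all tested was -0.46, and the named microRNAs called numbered 11 against c-Src and 13 against Csk, from 28 and 30. Mock array 1 has 3 spots whose local background, up to 3812 against at most 67 on the other arrays, exceeds their signal, and its median after normexp was 133.6 against 61.4 to 64.3. Normexp without those spots, chosen after seeing the data, brought that median to 63.6 and gave 144 calls, 22 higher and 122 lower. Higher and lower calls were 52 and 32 with the percentile over microRNAs detected on all 4 arrays, 56 and 30 over all mouse microRNAs, 46 and 54 on the median, 49 and 44 after quantile normalization, and 50 and 18 in the authors' unscaled table. They were 31 and 71 with the mean of log2 over probes, 31 and 41 with outlier spots kept, 27 and 48 with the floor 2 times as high, 29 and 62 with no detection filter, 27 and 55 for microRNAs detected on all 8 arrays, and 28 and 51 in the fit on 4 arrays. Leaving out 1 array gave 31 to 90 calls, 7 to 58 higher and 22 to 58 lower, and 25 to 28 named microRNAs called against c-Src and 24 to 30 against Csk.

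With the replicate number as a block, 103 were called, 36 higher and 67 lower; of the named microRNAs, miR-27b, miR-322, miR-221 and miR-21 gained a call. The correlation of same-numbered arrays' deviations was 0.27 between mock and Csk+c-Src, and over all pairs of groups it ran from -0.09 to 0.44. With not every pair over 0.1 and no label that gives a shared batch, the numbers were not taken to pair the samples.

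Values under the settings in which a sign turned were as follows, as log2 differences; all-mouse and 4-array name the set over which the percentile was taken. Against mock, miR-218 took -0.012 (normexp). MiR-466a-3p took -0.44 (normexp) and -0.053 (normexp without the 3 spots). MiR-135a* took -0.56 (normexp) and -0.14 (normexp without the 3 spots). MiR-21* took -0.46 (normexp) and -0.070 (normexp without the 3 spots). MiR-7a* took -0.46 (normexp) and -0.054 (normexp without the 3 spots). MiR-10b took -0.22 (normexp). MiR-27b took 0.0099 (unscaled). MiR-222 took 0.084 (4-array), 0.093 (all-mouse), 0.0051 (quantile), 0.11 (unscaled) and -0.18 to 0.071 (1 array left out). MiR-31 took 0.025 (4-array), 0.033 (all-mouse), 0.053 (unscaled) and -0.20 to 0.012 (1 array left out). MiR-146b took -0.25 (normexp). Against c-Src, miR-466a-3p took 0.15 (4-array), 0.091 (all-mouse), 0.051 (quantile), 0.021 (normexp), 0.021 (normexp without the 3 spots) and -0.18 to 0.0095 (1 array left out). MiR-135a* took 0.041 (normexp) and 0.041 (normexp without the 3 spots). MiR-7a took 0.14 (4-array) and 0.080 (all-mouse). MiR-7a* took 0.14 (4-array), 0.083 (all-mouse), 0.035 (quantile) and -0.28 to 0.0075 (1 array left out). MiR-19a took -0.061 (quantile), -0.073 (unscaled) and -0.028 to 0.19 (1 array left out). MiR-20a took -0.046 (unscaled) and -0.0038 to 0.22 (1 array left out). Against Csk, miR-338-3p took -0.15 (outlier spots kept), -0.036 (normexp) and -0.036 (normexp without the 3 spots). MiR-148a took 0.11 (all-mouse) and 0.16 (quantile). MiR-218 took 0.072 (4-array), 0.27 (all-mouse), 0.10 (median), 0.24 (quantile), 0.042 (unscaled) and -0.10 to 0.15 (1 array left out). MiR-7a* took 0.014 (all-mouse). MiR-210 took 0.11 (all-mouse), 0.14 (quantile) and -0.30 to 0.022 (1 array left out). The cause of these turns was not tested.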

Other observations

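Some of the larger differences did not pass the threshold. Let-7b* was at -3.58 and -3.22 in mock and -3.95 and -4.47 with Csk and c-Src, and its log2 difference of -0.81 ± 0.27 (SE) had an adjusted p of 0.0745 in limma. MiR-709 gave -0.66 (adjusted p = 0.0622) and miR-677 -0.71 (adjusted p = 0.0622). Of the embryonic stem cell clusters, miR-290-3p gave -0.73 (adjusted p = 0.104) and miR-291b-5p -0.50 (adjusted p = 0.0993). On the other side, let-7c-1* gave 0.43 (adjusted p = 0.141) and miR-130b* 0.41 (adjusted p = 0.168). MiR-22*, from the other strand of the miR-22 hairpin, rose by 0.38 (adjusted p = 0.00173) and kept that call under the 5 scalings and with each array left out, while miR-22 gave 0.10 (adjusted p = 0.304).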
